A study of Mus musculus with 15 samples.

Results

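The fibroblast and mesenchymal matrix programme is the set of genes by which embryonic fibroblasts are usually recognised: the collagens and crosslinking enzymes of their matrix, the transcription factors of mesenchyme, and fibroblast surface proteins. It was followed here as 32 genes, found by their symbols by a rule with no threshold on a measured level, of 43432 gene identifiers counted in 15 mouse lines. All 32 were found in the deposited count tables, and a level is given for every gene in every line.

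The lines were induced extraembryonic endoderm (iXEN) lines of CD1 background, made from mouse embryonic fibroblasts (MEFs) by overexpressing reprogramming factors, and they were compared in 3 groups of 5. Retroviral OSKM lines received Oct4, Sox2, Klf4 and Myc by retrovirus, and each was a clone grown from 1 single cell that was positive for Oct4-EGFP. Lentiviral OSKM lines received the same 4 factors by lentivirus, and lentiviral SKM lines received Sox2, Klf4 and Myc without Oct4. The lentiviral lines were stable lines past passage 11, each from its own MEF preparation. Every group therefore shares forced Sox2, Klf4 and Myc. The labels disagree in part, since titles of the lentiviral lines begin with IPS, their source is given as induced pluripotent except for lentiviral OSKM line 1, and the treatment field of all retroviral lines, as of that line, names ESC differentiation. No fibroblast library was used here, so a level above 1 CPM (counts of a gene scaled to the depth of its library) in a line says that the RNA was present, not that it was carried over from the starting cells.

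Fibroblasts build an interstitial matrix whose strength comes from fibrillar collagens. Type I collagen is assembled from chains encoded by Col1a1 and Col1a2, types III and V join the same fibrils, and lysyl oxidases of the Lox family crosslink them outside the cell. Extraembryonic endoderm lays down a different matrix, a basement membrane of type IV collagen and laminin, and its parietal form builds Reichert's membrane in the rodent embryo. Both matrices use many of the same folding and crosslinking enzymes.

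Promoter sequence of 4 members is shown because their levels divided the lines in different ways: Col1a2 and Col3a1 encode fibril chains that were high together in 3 lines but parted in others, Prrx1 was highest in a single retroviral line, and Col6a1 was present in every line. Each sequence is the 250 bases before the RefSeq start on GRCm38.p6, read 5′ to 3′ on the strand of the gene. The windows are chr6:4505368-4505617 on the plus strand for Col1a2, chr1:45311288-45311537 on the plus strand for Col3a1, chr1:163313651-163313900 on the minus strand for Prrx1 and chr10:76726045-76726294 on the minus strand for Col6a1. Capitals mark any match to 5 short motifs searched on both strands.
Col1a2: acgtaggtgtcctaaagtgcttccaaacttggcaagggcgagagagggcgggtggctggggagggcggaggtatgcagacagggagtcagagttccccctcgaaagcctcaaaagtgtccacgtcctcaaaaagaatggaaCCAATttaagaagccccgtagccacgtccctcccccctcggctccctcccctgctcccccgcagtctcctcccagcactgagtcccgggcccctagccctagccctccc
Col3a1: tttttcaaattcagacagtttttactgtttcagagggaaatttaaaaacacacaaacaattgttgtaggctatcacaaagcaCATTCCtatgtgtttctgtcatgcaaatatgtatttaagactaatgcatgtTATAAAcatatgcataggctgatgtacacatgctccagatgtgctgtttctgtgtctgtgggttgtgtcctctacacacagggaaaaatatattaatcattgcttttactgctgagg
Prrx1: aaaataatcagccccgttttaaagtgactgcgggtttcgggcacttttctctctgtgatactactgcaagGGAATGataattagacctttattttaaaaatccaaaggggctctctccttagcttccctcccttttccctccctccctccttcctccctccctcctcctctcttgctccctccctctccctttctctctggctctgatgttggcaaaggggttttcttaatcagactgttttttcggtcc
Col6a1: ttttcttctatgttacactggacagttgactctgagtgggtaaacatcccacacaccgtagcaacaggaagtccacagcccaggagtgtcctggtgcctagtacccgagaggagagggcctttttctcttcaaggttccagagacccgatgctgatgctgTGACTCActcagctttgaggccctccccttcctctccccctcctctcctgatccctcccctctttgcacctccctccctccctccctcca
The capitals are a CCAAT match in Col1a2, a TATAAA match and a reverse-strand GGAATG match in Col3a1, a GGAATG match in Prrx1 and a TGANTCA match in Col6a1. The TATAAA match of Col3a1 began at base -117 from the start, farther upstream than a TATA box usually lies. Over the 16 of 32 members that had a window in the RefSeq table, CCAAT was found in 5, TATAAA in 5, GGAATG (the letters of TEAD sites) in 4, TGANTCA (the letters of AP-1 sites) in 2 and CAGGTG (an E-box) in 0. Those 16 members had 21 windows, and the numbers of windows with each motif were the same. Over all 32851 promoter windows of the same length, 33.8% held CCAAT, 12.4% TATAAA, 12.6% GGAATG, 6.75% TGANTCA and 17.2% CAGGTG. None of the 5 motifs overlaps another in the 4 printed sequences, and a match describes the letters only. The Col3a1 window was 35.2% G or C and the Col1a2 window 62.0%, beside a median of 52.4% over all windows.

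Depth was 34916933 to 46995817 gene counts in the retroviral libraries and 60998360 to 75376275 in the lentiviral ones. A count of 0 in a library allowed a level of up to 0.0386 to 0.0851 CPM, for counting error only. Extraembryonic endoderm regulators were present in every line: all 12 genes of that list exceeded 1 CPM in each of the 15 lines, and their summed level ran from 2044 to 5541 CPM in retroviral OSKM, 3424 to 5576 CPM in lentiviral OSKM and 4453 to 5419 CPM in lentiviral SKM lines. The 10 fibroblast-defining markers, all of them members, summed to 9.7 to 230 CPM (median 23.6) in retroviral OSKM, 15.3 to 614 CPM (median 18.3) in lentiviral OSKM and 11.7 to 336 CPM (median 23.4) in lentiviral SKM lines.

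Of the 32 genes, 8 exceeded 1 CPM in every line, 21 did so in some lines and 3 did so in none. The 8 were Col6a1, Col6a2, Fbn1, Zeb1, Mmp2, Fn1, Loxl2 and Thbs1. The 3 were Lum, Twist2 and Fap. Lum encodes lumican, a small proteoglycan that spaces collagen fibrils, and its highest level was 0.0861 CPM, in lentiviral OSKM line 5. Twist2, a mesenchymal transcription factor, reached 0.23 CPM, and Fap, a surface protease of activated fibroblasts, 0.0939 CPM.

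**Figure D1:**
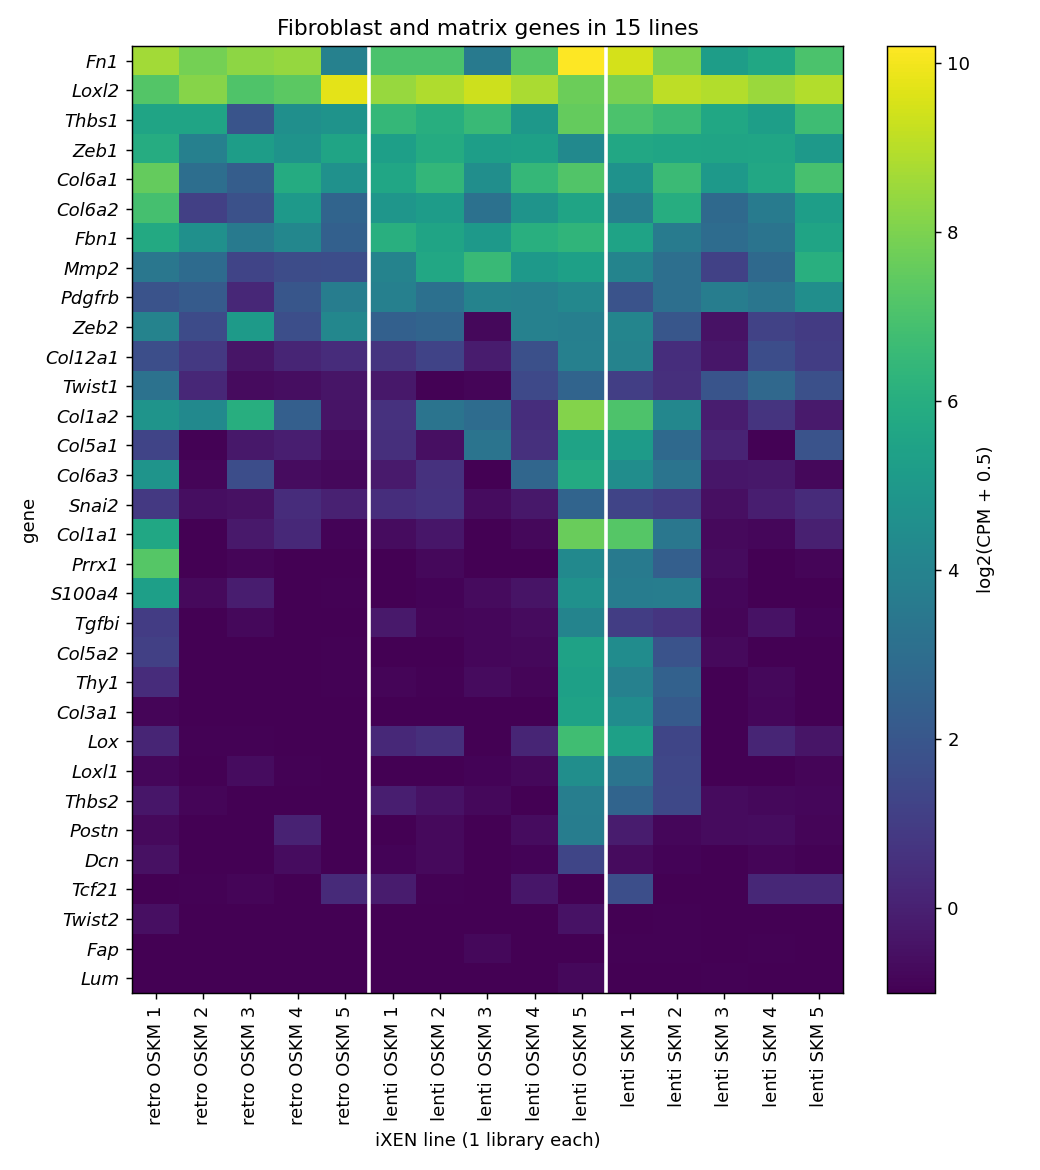
Level of each of the 32 genes (rows) in each of the 15 lines (columns), as the log2 of CPM plus a pseudocount of 0.5 in colour, with white lines between the groups. Fn1 and Loxl2 are bright in most columns, and a block that holds Col1a1, Col3a1, Thy1 and Lox is bright in lentiviral OSKM line 5 and lentiviral SKM lines 1 and 2.

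The genes present in some lines were concentrated in a few of them. In lentiviral OSKM line 5, 28 of the 32 genes exceeded 1 CPM, in lentiviral SKM line 1 27, in lentiviral SKM line 2 24 and in retroviral OSKM line 1 21. The other 11 lines held 10 to 14 each. The highest line was lentiviral OSKM line 5 for 19 genes and retroviral OSKM line 1 for 6. Of all 15152 genes that reached 1 CPM, 10% were highest in lentiviral OSKM line 5. In RNA from whole cultures, fewer cells of a type and less RNA per cell cannot be told apart.

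**Figure D2:**
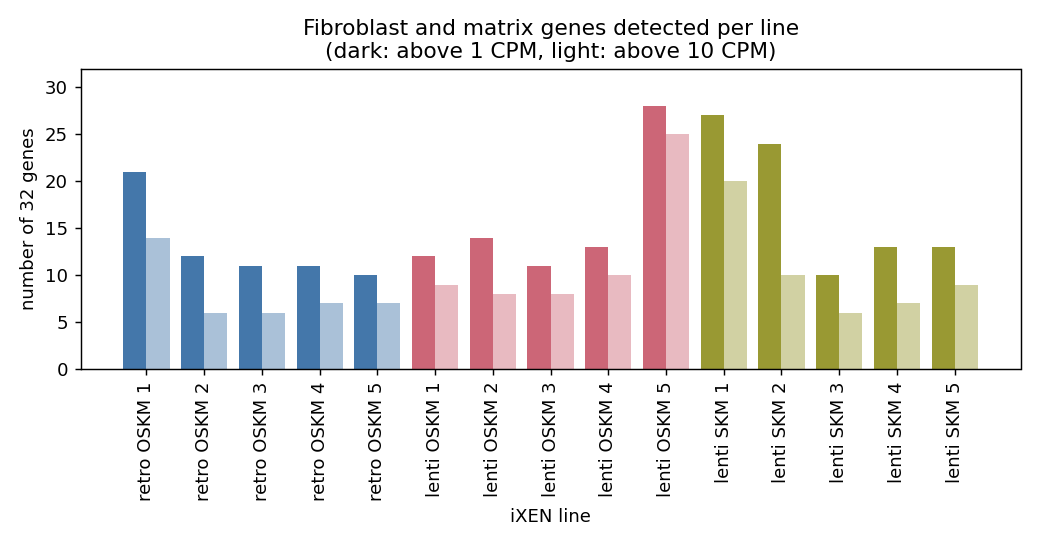
Number of the 32 genes (vertical axis) above 1 CPM (dark bars) and above 10 CPM (light bars) in each line, coloured by group. Lentiviral OSKM line 5, lentiviral SKM lines 1 and 2 and retroviral OSKM line 1 stand at 21 to 28 genes above 1 CPM, while the other 11 stand at 10 to 14.

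Type I collagen divided the lines most widely. Col1a1 (chr11:94936224-94953042, GENCODE gene limits on GRCm38), the major chain, measured 50, 0, 0.359, 0.738 and 0.0464 CPM in retroviral OSKM lines 1 to 5, 0.148, 0.295, 0, 0.0989 and 197 CPM in lentiviral OSKM lines 1 to 5, and 153, 10.3, 0.106, 0.0661 and 0.502 CPM in lentiviral SKM lines 1 to 5. It was thus at 10.3 CPM or more in 4 lines and at 0.738 CPM or less in 11, with the high lines spread over all 3 groups. Col1a2 (chr6:4504814-4541544), the partner chain, measured 27, 19.4, 65, 4.79 and 0.255 CPM in the retroviral lines, 1.01, 9.32, 7.34, 0.876 and 281 CPM in the lentiviral OSKM lines, and 132, 17.6, 0.44, 1.12 and 0.373 CPM in the lentiviral SKM lines. It exceeded 1 CPM in 7 of the 11 lines in which Col1a1 did not. Retroviral OSKM line 3 held 65 CPM of Col1a2 beside 0.359 CPM of Col1a1, and retroviral OSKM line 2 held 19.4 CPM beside no Col1a1 count. Some endothelial markers were also high in retroviral OSKM line 3, with 133 CPM of Pecam1, 71.8 CPM of Tie1 and 38.8 CPM of Kdr. In any other line they were at most 23.1, 3.91 and 8.01 CPM. Of the same list, Emcn was at 0.335 CPM, low but its highest level in the series. Cdh5 and Tek, the rest of the list, were not high there, at 209 and 184 CPM, beside up to 433 and 353 CPM in other lines. That line also had the lowest Foxa2 of the series, at 2.56 CPM, and the part of these markers in the Col1a2 level was not tested.

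Per kilobase of the longest annotated transcript, Col1a1 stood at 0.526 to 1.67 times Col1a2 in the 4 lines where Col1a1 was high. The ratio was 0.00498 in retroviral OSKM line 3 and 0.0285 in lentiviral OSKM line 2. In the remaining lines with counts of both chains it was 0.0531 to 0.218, except in lentiviral SKM line 5. There it was 1.21, within the range of the high lines, at 0.502 CPM of Col1a1 and 0.373 CPM of Col1a2.

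**Figure D3:**
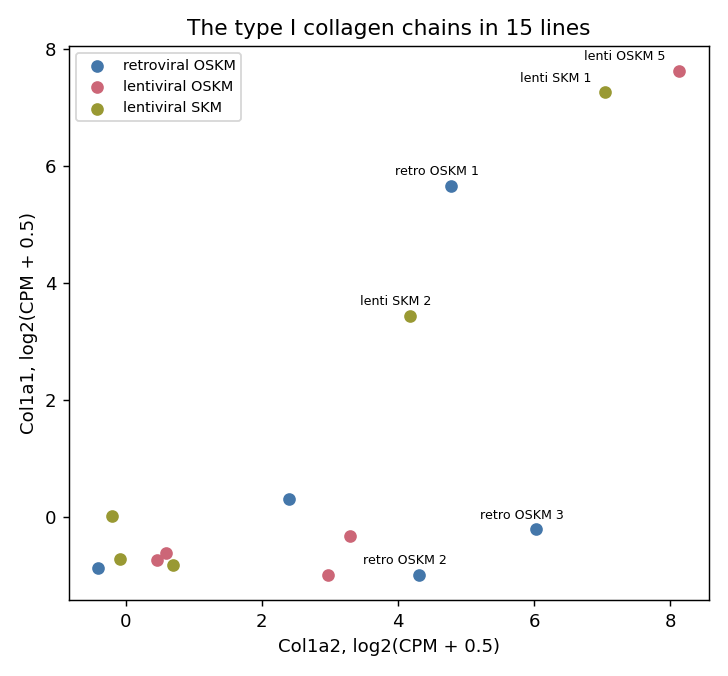
Col1a1 (vertical axis) against Col1a2 (horizontal axis) in the 15 lines, both as log2(CPM + 0.5), 1 point per line, coloured by group. Lentiviral OSKM line 5, lentiviral SKM lines 1 and 2 and retroviral OSKM line 1 lie high on both axes, and retroviral OSKM lines 2 and 3 lie high on Col1a2 only, at 19.4 and 65 CPM.

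Of the chains of types III and V, only Col3a1 exceeded 1 CPM in fewer lines than Col1a1. Col5a2 did so in the same 4 lines as Col1a1, and Col5a1 in 6 lines. Col3a1 (chr1:45311538-45349706), the only chain of type III collagen, measured 0.0539, 0, 0, 0 and 0 CPM in the retroviral lines, 0, 0, 0, 0 and 43.4 CPM in the lentiviral OSKM lines, and 21.2, 4, 0, 0.0661 and 0 CPM in the lentiviral SKM lines. Only 3 lines exceeded 1 CPM, and 10 libraries had no count at all. Retroviral OSKM line 1, with 50 CPM of Col1a1, was among those with almost none, at 0.0539 CPM. Col5a2, whose product nucleates fibrils with that of Col5a1, lies 24.6 kb from Col3a1 with no protein-coding gene between them, and it followed the same lines at 43, 21.6 and 3.15 CPM. In retroviral OSKM line 1 Col5a2 stood at 1.7 CPM. Per kilobase, Col3a1 was 1.17 to 1.51 times Col5a2 in the 3 lines and 0.0378 times it in retroviral OSKM line 1.

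Col5a1 (chr2:27886425-28039514) was less restricted. It measured 1.94, 0.0268, 0.335, 0.454 and 0.139 CPM in the retroviral lines, 0.919, 0.192, 9.54, 0.961 and 44.8 CPM in the lentiviral OSKM lines, and 34.6, 6.69, 0.576, 0.0165 and 3.12 CPM in the lentiviral SKM lines. Lentiviral OSKM line 3, with no Col1a1 count, therefore held more Col5a1 than lentiviral SKM line 2 did. Col12a1, a collagen that decorates fibril surfaces, reached 15.4 CPM in lentiviral SKM line 1 and 14 CPM in lentiviral OSKM line 5, and at most 2.87 CPM elsewhere.

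Collagen VI forms beaded microfibrils from 3 chains, and only Col6a1 and Col6a2 of the 3 were present throughout. Col6a1 (chr10:76708792-76726168) measured 185, 7.7, 4.45, 58 and 24.7 CPM in the retroviral lines, 48.4, 86, 22.9, 87.9 and 141 CPM in the lentiviral OSKM lines, and 25.8, 98.3, 31.9, 51.3 and 124 CPM in the lentiviral SKM lines. Col6a2, its neighbour 85.2 kb away, ran from 1.66 to 118 CPM, and both peaked in retroviral OSKM line 1. Per kilobase Col6a1 was 1.72 to 5.50 times Col6a2 across the 15 lines. Col6a3 (chr1:90765923-90843971), the third chain, measured 27.2, 0.0536, 2.59, 0.142 and 0.0929 CPM in the retroviral lines, 0.371, 1.02, 0, 5.96 and 56.7 CPM in the lentiviral OSKM lines, and 22.3, 9.48, 0.288, 0.314 and 0.0902 CPM in the lentiviral SKM lines. Its 4 highest lines were the 4 lines with high Col1a1, and its level per kilobase against Col6a1 ran from 0.000294 in lentiviral SKM line 5 to 0.351 in lentiviral SKM line 1.

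Among the crosslinking enzymes, Loxl2 was present in every line and its relatives were not. Loxl2 (chr14:69609068-69695834), a lysyl oxidase that also acts on the type IV collagen of basement membranes, measured 145, 282, 137, 165 and 854 CPM in the retroviral lines, 353, 462, 643, 436 and 203 CPM in the lentiviral OSKM lines, and 239.8, 539.8, 474, 369 and 483 CPM in the lentiviral SKM lines. Its order differed from that of the collagens: lentiviral OSKM line 5 and lentiviral SKM line 1 were the lowest of their groups. Lox, the founding lysyl oxidase of fibrillar collagen and elastin, measured 0.62, 0.0268, 0.0239, 0 and 0 CPM in the retroviral lines, 0.727, 0.914, 0, 0.607 and 107 CPM in the lentiviral OSKM lines, and 40.8, 2.02, 0, 0.628 and 0.283 CPM in the lentiviral SKM lines. Loxl1, which acts on elastic fibres, measured 22.7 CPM in lentiviral OSKM line 5, 9.38 CPM in lentiviral SKM line 1 and 2.12 CPM in lentiviral SKM line 2, and no more than 0.144 CPM elsewhere.

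Fn1 (chr1:71585520-71653200) encodes fibronectin, the adhesive glycoprotein on which collagen fibrils are laid. It measured 401, 231, 312, 342 and 14.5 CPM in the retroviral lines, 128, 131, 11.3, 153 and 1174 CPM in the lentiviral OSKM lines, and 709.5, 257, 37.5, 51.2 and 131 CPM in the lentiviral SKM lines. Every line held fibronectin RNA, and 2 lines with little of it, retroviral OSKM line 5 and lentiviral OSKM line 3, were the 2 lines with the most Loxl2. Fbn1, the fibrillin of elastic microfibrils, ran from 4.97 CPM in retroviral OSKM line 5 to 79.4 CPM in lentiviral OSKM line 5.

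The matricellular proteins also held a gene of every line and genes of a few. Thbs1 (chr2:118111876-118127133), thrombospondin 1, a modulator of adhesion that can activate latent TGF-beta, measured 46.7, 45.5, 3.23, 23.1 and 26.1 CPM in the retroviral lines, 87.8, 65.1, 95.4, 31 and 189.8 CPM in the lentiviral OSKM lines, and 128, 98.7, 51.2, 37.9 and 106 CPM in the lentiviral SKM lines. Its paralogue Thbs2 reached 13.5 CPM in lentiviral OSKM line 5, 5.56 CPM in lentiviral SKM line 1 and 2.2 CPM in lentiviral SKM line 2, and at most 0.46 CPM elsewhere. Thbs1 thus exceeded 1 CPM in all lines and Thbs2 in 3. Postn (periostin) and Dcn (decorin), classical products of mature fibroblasts, exceeded 1 CPM only in lentiviral OSKM line 5, at 12.9 and 2.01 CPM. Tgfbi, a TGF-beta-induced matrix protein, measured 16 CPM there and 1.14 to 1.52 CPM in lentiviral SKM lines 1 and 2 and retroviral OSKM line 1.

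The mesenchymal transcription factors showed no common order. Zeb1, a zinc-finger repressor of epithelial genes, measured 61.4, 14.1, 36.7, 26.3 and 46 CPM in the retroviral lines, 39.1, 59.3, 38.7, 41.3 and 19.6 CPM in the lentiviral OSKM lines, and 52.1, 47.6, 45.9, 47.8 and 32.8 CPM in the lentiviral SKM lines. The highest line for 19 of the 32 genes, lentiviral OSKM line 5, was the lowest lentiviral line for Zeb1. Its relative Zeb2 ran from 0.0939 CPM in lentiviral OSKM line 3 to 33.8 CPM in retroviral OSKM line 3, and Snai2, a further repressor of this kind, peaked at 5.63 CPM in lentiviral OSKM line 5.

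Prrx1 (chr1:163245119-163313710), a homeobox factor of limb and craniofacial mesenchyme, measured 149, 0, 0.0479, 0 and 0 CPM in the retroviral lines, 0, 0.0885, 0, 0 and 19.2 CPM in the lentiviral OSKM lines, and 11.4, 4.67, 0.121, 0 and 0.0515 CPM in the lentiviral SKM lines. It was present in the same 4 lines as Col1a1 but in another order, with retroviral OSKM line 1 at the top. Twist1, a basic helix-loop-helix factor of mesenchyme, was also highest there, at 8.95 CPM, and reached 6.41 CPM in lentiviral SKM line 4, where Col1a1 was 0.0661 CPM. Tcf21, a factor of visceral organ mesenchyme, exceeded 1 CPM only in lentiviral SKM line 1, at 2.68 CPM.

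**Figure D4:**
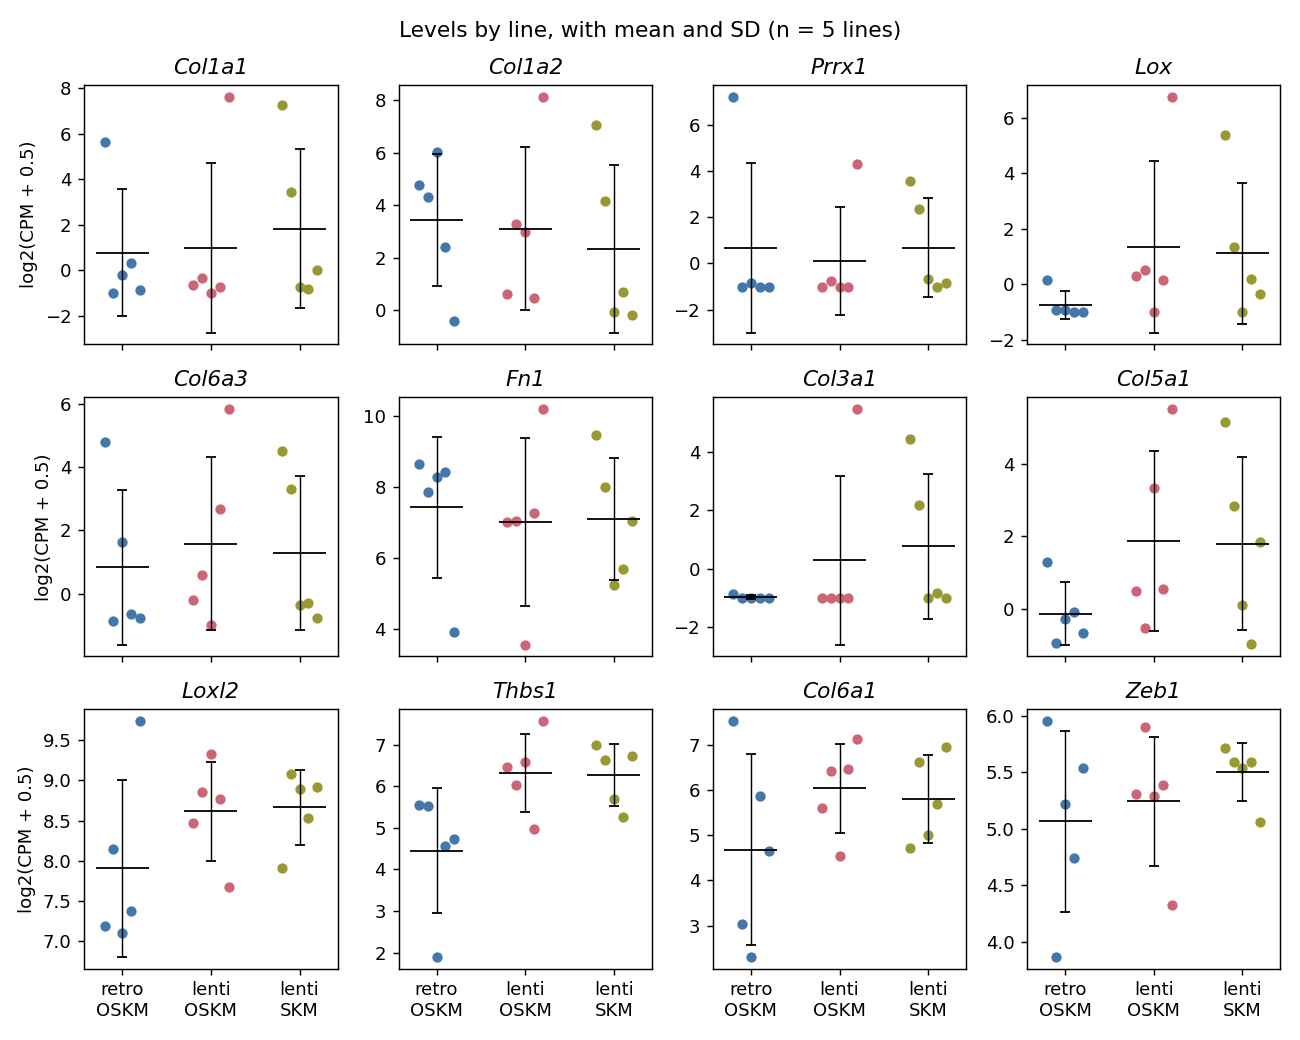
Levels of 12 genes, the 8 with the widest range over lines and those with the highest means, as log2(CPM + 0.5) on a separate vertical axis for each gene; points are lines, horizontal bars group means and error bars SD (n = 5 lines). Single lines stand far above their groups for Col1a1, Prrx1, Lox and Col3a1, while all lines of Loxl2 and Zeb1 lie above 10 CPM.

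Of the surface and intracellular markers, Thy1 and S100a4 followed the restricted pattern. Thy1 (CD90), a glycoprotein used to sort fibroblasts, measured 40.4 CPM in lentiviral OSKM line 5, 14.7 CPM in lentiviral SKM line 1, 5.06 CPM in lentiviral SKM line 2 and 0.836 CPM in retroviral OSKM line 1, and no more than 0.121 CPM in the other 11. S100a4, a calcium-binding protein also called fibroblast-specific protein, measured 39.7 CPM in retroviral OSKM line 1, 24.9 CPM in lentiviral OSKM line 5, 12.6 CPM in lentiviral SKM line 1 and 13.1 CPM in lentiviral SKM line 2, and no more than 0.431 CPM elsewhere. The order of the lines thus differed between these 2 markers. Pdgfrb, a receptor for platelet-derived growth factor, exceeded 1 CPM in 14 of the 15 lines and ran from 0.67 to 22.4 CPM.

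Across the restricted genes the high lines did not differ by 1 common factor. From lentiviral SKM line 1 to lentiviral OSKM line 5 levels were higher by 1.29 times for Col1a1, 2.04 times for Col3a1, 2.63 times for Lox and 10.5 times for Tgfbi. Lentiviral SKM line 1 stood above lentiviral SKM line 2 by 20.1 times for Lox, 14.8 times for Col1a1 and 2.91 times for Thy1, whereas S100a4 was 0.966 times as high. These ratios compare single libraries and have no replicate check.

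Members whose highest lines coincided were counted against all genes. Lentiviral OSKM line 5 and lentiviral SKM lines 1 and 2 were the 3 highest lines for 7 members, Thy1, Col3a1, Col5a2, Snai2, Loxl1, Thbs2 and Lox, of the 29 that reached 1 CPM. Among all 15152 genes that reached 1 CPM, 66 (0.436%) had these 3 highest lines. With retroviral OSKM line 1 added, the 4 highest lines were these 4 for 8 members, Thy1, Col1a1, Col5a2, Col6a3, Prrx1, Snai2, Tgfbi and S100a4, and for 110 of all genes (0.726%). The lines were picked from the members' own levels, so these counts describe and test nothing. Among the 25 members that reached 10 CPM, the median range over lines was 5.77 on the log2(CPM + 0.5) scale, beside 1.47 over all genes that reached 10 CPM. A range of at least 5 was seen in 18 of the 25 members and in 6.27% of those genes.

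Among the 22 members that passed the count filter over all 15 libraries, Spearman's rho was at least 0.7 in 19 of 231 pairs (8.23%), and in 0.668% of all pairs of the 16687 genes that passed it. Over the 10 lentiviral lines the shares were 14.7% and 2.02%. The pairs share their libraries and depths, and these shares are descriptions with no test.

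Relations to Col1a1 were tested for the other 31 members by a two-sided permutation test of rho with 100000 resamples and Benjamini-Hochberg adjustment. Over 15 lines 9 members passed, all with a positive rho, namely Col3a1, Col6a2, Col6a3, Dcn, Twist2, Prrx1, Snai2, Loxl1 and Fn1. Some of these passes rest largely on ties at 0 or on ranks of very few counts. Twist2 had no count in 12 lines and Col3a1 none in 10, and Dcn was at most 0.216 CPM outside lentiviral OSKM line 5. A rho of at least 0.7 with Col1a1 was reached by 7 of the 31 members and by 1% of all genes that passed the count filter. Over the lentiviral lines it was reached by 8 of the 31 and by 2.91%. The members were counted whether or not they passed that filter, so the 2 sets are not alike. Because Col1a1 fell into 2 separate ranges, no pooled coefficient is given. Within the 11 lines with at most 1 CPM of Col1a1, the relation of Twist2 could not be computed, since it had no count there. Of the other relations 0 passed and 2 had an unadjusted p under 0.05. Col1a1 itself spanned only 0 to 0.738 CPM in these lines, so this says little about a relation. Within the 10 lentiviral lines 3 passed, and without the 2 lines farthest from the median, lentiviral OSKM line 5 and lentiviral SKM line 1, 2 of the relations over the remaining lines passed. Most of the 9 relations over 15 lines thus did not pass without those 2 lines.

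The omission of Oct4 from the factor set was addressed by comparing lentiviral SKM with lentiviral OSKM lines. No member differed between these groups beyond the spread of the lines. edgeR's quasi-likelihood test called 0 of the 21 members tested, as it called 0% of all 15899 genes tested, and at an unadjusted p under 0.05 it marked 1 member, lower in lentiviral SKM, and 4.86% of all genes (2.57% lower, 2.29% higher). In 0 of the tested members were the groups free of overlap, beside 0.717% of all genes. DESeq2 and limma voom also called 0 members, beside 44 and 0 of all genes. The 11 members left out by the count filter, among them Thy1, Col3a1, Col5a2, Prrx1, Loxl1 and S100a4, were high in too few lines to be tested.

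Fbn1 had the smallest p, with 66.9, 46, 32.2, 66 and 79.4 CPM in the lentiviral OSKM lines and 44.7, 12.1, 7.38, 9.39 and 46.3 CPM in the lentiviral SKM lines. The groups overlapped, since 2 of the lentiviral SKM lines lay within the range of the lentiviral OSKM lines. The means were 58.1 ± 18.8 and 24.0 ± 19.7 CPM (SD, n = 5 each), with a log2 fold change of -1.27 (SE 0.53) and an edgeR adjusted p of 0.979. Mmp2 followed at -1.26 (SE 0.82) and Tcf21 at 2.41 (SE 1.60), both with an edgeR adjusted p of 0.987.

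Of the 21 tested members 5 were estimated higher and 16 lower in lentiviral SKM lines, beside 49.8% and 50.2% of all genes. Their median log2 fold change was -0.32, beside 0.00 over all genes, but it turned to 1.16 without lentiviral OSKM line 5 and went to -1.42 without lentiviral SKM line 1. Lox showed the same dependence, at -1.32 (SE 2.06) with all lines and 3.96 (SE 2.0) without lentiviral OSKM line 5.

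The retroviral and lentiviral OSKM lines share the 4 factors but differ in vector, in clonal origin and in library series, and these cannot be told apart. Most tested members were estimated lower in the retroviral lines, and none passed the threshold in edgeR. Of 18 members tested 0 were called, where 0.252% of all 15483 genes were called (0.11% higher and 0.142% lower in the retroviral lines). At an unadjusted p under 0.05 there were 6 members, all lower, and 14.5% of all genes (6.89% lower, 7.56% higher). limma voom called 0 members, beside 63 of all 15483 genes. DESeq2 called 2, Mmp2 and Col5a1, beside 616 of all 15483 genes.

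Mmp2 encodes gelatinase A, a secreted protease that cleaves type IV collagen and denatured collagens. It measured 10.4, 6.95, 1.99, 2.53 and 2.62 CPM in the retroviral lines and 15.7, 52.5, 96.8, 32.2 and 40.6 CPM in the lentiviral OSKM lines. Every retroviral line lay below every lentiviral OSKM line, the 1 tested member with no overlap, beside 4.04% of all genes. The means were 4.89 ± 3.65 and 47.6 ± 30.6 CPM (SD, n = 5 each), with a log2 fold change of -3.26 (SE 0.61), an edgeR adjusted p of 0.0564 and a DESeq2 adjusted p of 1.62e-06. In the lentiviral SKM lines Mmp2 measured 16.2, 7.92, 1.73, 6.56 and 66.4 CPM, a range that spanned most of both other groups.

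The estimate for Lox was the largest, at -7.30 (SE 2.38, edgeR adjusted p = 0.211), and that for Col5a1 was -4.24 (SE 1.52, edgeR adjusted p = 0.243). Both leaned on lentiviral OSKM line 5: without it Lox stood at -2.0 (SE 1.44) and Col5a1 at -2.29 (SE 1.24). Col5a1 passed in DESeq2 at an adjusted p of 0.0465. Thbs1, Pdgfrb and Fbn1 were the other members with an unadjusted p under 0.05, at log2 fold changes of -1.67 (SE 0.62), -1.51 (SE 0.60) and -1.33 (SE 0.54).

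Over the 18 tested members 3 were estimated higher and 15 lower in the retroviral lines, beside 52.3% and 47.7% of all genes. Their median log2 fold change was -1.33, beside 0.03 over all genes, and it shrank to -0.16 without lentiviral OSKM line 5. The lentiviral OSKM libraries serve both comparisons, so the values of the 2 comparisons are not independent.

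**Figure D5:**
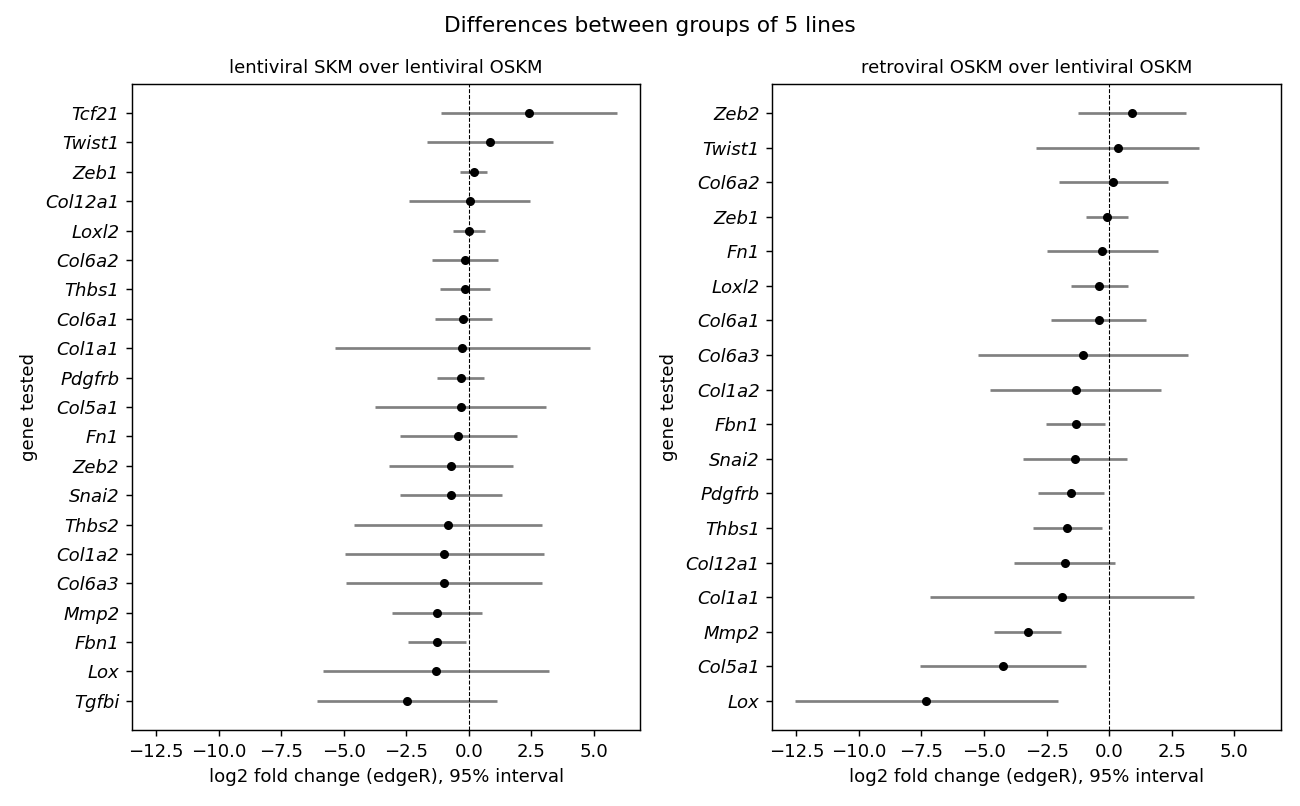
Log2 fold change (horizontal axis) of each tested member with its 95% interval from edgeR, for lentiviral SKM over lentiviral OSKM lines (left, 21 genes) and retroviral OSKM over lentiviral OSKM lines (right, 18 genes). Intervals are widest for Lox and Col1a1, and on the right Mmp2, Lox and Col5a1 lie farthest below 0.

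Other genes of matrix assembly gave 0 edgeR calls in both comparisons. Of the 20 collagen processing genes 16 exceeded 1 CPM in every line. The most abundant included Serpinh1, the collagen chaperone HSP47, at 2218 to 6603 CPM, P4hb, a subunit of prolyl hydroxylase, at 1762 to 3889 CPM, and Sparc, a collagen-binding glycoprotein, at 5018 to 16513 CPM. Adamts2, a protease that trims procollagen, stayed between 0 and 1.39 CPM. Of 20 processing genes 9 were estimated higher and 10 lower in lentiviral SKM lines, and 5 higher and 13 lower in retroviral lines, against lentiviral OSKM lines. Of 22 other fibroblast matrix genes, 5 and 11 were estimated higher and lower in the first comparison, and 2 and 12 in the second. Of 14 targets or ligands of TGF-beta and YAP signalling, 4 and 9 were estimated higher and lower in each comparison. Of 12 fibroblast surface and cytoskeletal genes, 4 and 7 were so in the first comparison, and 5 and 6 in the second. The rest of each list did not pass the count filter, being low in every line or high in too few lines.

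Lentiviral OSKM line 5 and lentiviral SKM lines 1 and 2 were the 3 highest lines for 6 of the 17 other fibroblast matrix genes that reached 1 CPM, for 2 of the 12 surface and cytoskeletal genes, and for 0 of the 20 processing genes and 0 of the 14 signalling genes. The examples that follow were picked after their values were seen. Tnc, the matricellular tenascin C, measured 40.4 CPM in lentiviral OSKM line 5, 25.1 CPM in lentiviral SKM line 1, 3.05 CPM in lentiviral SKM line 2 and at most 0.351 CPM elsewhere. Bgn, the proteoglycan biglycan, measured 291, 85.7 and 53.2 CPM in those lines and at most 45 CPM elsewhere. Cdh11, a mesenchymal cadherin, measured 10.1, 4.75 and 2.43 CPM and at most 2.26 CPM elsewhere. Retroviral OSKM line 1 stood out for others, with 588 CPM of Ly6a (Sca-1), 76.6 CPM of Ddr2, a collagen receptor, and 33.8 CPM of Cspg4 (NG2), beside at most 25.2, 16.9 and 4.03 CPM in any other line.

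Genes outside the 32 were ranked by how like Col1a1 their order over the 15 lines was. Low genes were not ranked. Among 10697 candidates whose mean log2 CPM was 1 or more, the 10 highest values of rho ran from 0.806 to 0.881 and belonged to Nr1h2, Vwf, Dnhd1, Ttc23, Tmcc3, Gt(ROSA)26Sor, Rragd, Synpo, mt-Nd6 and Angptl2. Likeness in order did not mean a like range, since Nr1h2, a liver X receptor, ran only from 43.5 to 79.5 CPM. Angptl2, a secreted angiopoietin-like protein, measured 88 CPM in lentiviral OSKM line 5, 63.8 CPM in lentiviral SKM line 1 and at most 32.1 CPM elsewhere.

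Markers of other cell types were read beside the restricted genes. The 2 type IV collagen chains of the parietal endoderm list were low in 2 of the 4 lines with high Col1a1: Col4a1 measured 62.6 CPM in lentiviral OSKM line 5 and 53.7 CPM in retroviral OSKM line 1, and Col4a2 41.8 and 46.2 CPM. Every other line held at least 5019 CPM of Col4a1 and 2410 CPM of Col4a2, lentiviral SKM lines 1 and 2 included, at 15996 and 12610.3 CPM of Col4a1. Of the rest of that list, Lama1, Lamb1, Lamc1 and Sparc measured 10154 to 13198 CPM in lentiviral OSKM line 5. In retroviral OSKM line 1 they measured 9533 to 10741 CPM. Nid1, Thbd, Plat and Fst measured 383, 11.9, 319.7 and 152 CPM in lentiviral OSKM line 5, the lowest levels of that group. In retroviral OSKM line 1 these measured 841, 4.1, 282 and 800.3 CPM. The 10 parietal endoderm genes together summed to 47266 CPM in lentiviral OSKM line 5 and 42171 CPM in retroviral OSKM line 1. The group ranges were 47266 to 112476 CPM in lentiviral OSKM and 20119 to 119196 CPM in retroviral OSKM lines. All 12 regulators of extraembryonic endoderm exceeded 1 CPM in these 4 lines, with sums of 3424 to 5302 CPM.

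The smooth muscle and pericyte list of 8 genes summed to 105 CPM in lentiviral OSKM line 5, 151 CPM in lentiviral SKM line 1, 28.8 CPM in lentiviral SKM line 2 and 53.9 CPM in retroviral OSKM line 1, with group ranges of 11.4 to 67.3 CPM (retroviral OSKM), 33.1 to 105 CPM (lentiviral OSKM) and 28.8 to 151 CPM (lentiviral SKM). Myh11, its defining myosin, was at or below 0.347 CPM in every line. Retroviral OSKM line 1 also held 72.3 CPM of Pou5f1 and 65.4 CPM of Sox2 of the pluripotency list. The rest of that list was at or below 0.108 CPM there, with Nanog at 0.0809 CPM. Pou5f1 measured 21.9 CPM in retroviral OSKM line 5, 7.88 CPM in retroviral OSKM line 3 and at most 0.671 CPM elsewhere. Sox2 was at most 4.99 CPM in any other line, and counts do not separate delivered from endogenous copies. Of 7 epithelial genes 4 to 7 exceeded 1 CPM per line, with sums of 485 to 2357 CPM carried mostly by Krt8 and Krt18; Cdh1 ran from 0.121 to 21.8 CPM. The 6 endothelial genes summed to 319.7 to 638 CPM (retroviral OSKM), 228 to 588 CPM (lentiviral OSKM) and 359 to 727 CPM (lentiviral SKM), and Emcn was at or below 0.335 CPM in every line. Of 10 genes of endoderm, epithelium, basement membrane and cytoskeleton related to Col1a1 by the same permutation test of rho, 0 passed and 0 had an unadjusted p under 0.05. By Pearson's r, and by either measure without the 2 farthest lines, 0 passed and 1 of the 10, Col4a1, had an unadjusted p under 0.05, with a negative sign. The part of these markers in the levels of the fibroblast genes was not tested.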

How the data were processed

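The authors deposited whole-number read counts per gene, from polyadenylated RNA prepared with an Illumina stranded kit per the labels' protocols. The submitters' processing notes name HISAT2 2.1.0, HTSeq 0.11.2, Trimmomatic 0.39, SAMtools 1.9, FastQC 0.11.7 and the build mm10, but neither annotation nor strand setting. The 5 HTSeq summary rows were left out; genes took 68.8% to 77.0% of entries.

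Levels are CPM scaled by TMM over 15 libraries. Comparisons used edgeR 4.0.16 in R 4.3.3 (filterByExpr, minimum count 10, quasi-likelihood F test, Benjamini-Hochberg adjustment over all genes tested, threshold 0.05). SE is the log2 fold change over the square root of F. Alternatives included DESeq2 1.42.0 and limma 3.58.1 (voom). The tests were tested on simulated data. Positions are from GENCODE M21 (GRCm38), promoters from RefSeq.

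The members and lists were chosen with earlier results of these data known. Levels in every line are given for the 8 members with the widest range and a maximum of at least 10 CPM and the 6 with the highest mean; edgeR values are given for the 3 smallest p, and for 3 further members of the second comparison chosen after their values were seen. Groups come from the labels. No source used here says whether the retroviral clones had separate MEF preparations; p-values measure the spread between these lines.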

Additional observations from a re-analysis of the deposited data

Results flagged for a closer look

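Within each group of 5 lines, the gap between the highest or lowest line and its nearest neighbour was set against the whole range of the group, and a share above 0.71 (Dixon's 95% critical value) marked a line that stood apart. Of 90 such groups of member levels 30 were marked. Chance marks about 1 group in 20 where values are normally distributed; these levels are skewed and often 0, so that share is not the chance rate here, and for Col3a1, Lum, Twist2 and Fap, whose other 4 lines had no count, a mark was certain. The genes are not independent, and most marks fell on the same lines. The highest line of its group by this measure for 14 genes was lentiviral OSKM line 5, which stood above the other 4 with these levels in CPM: Thy1 at 40.4, Col1a1 at 197, Col3a1 at 43.4, Col5a2 at 43, Lum at 0.0861, Dcn at 2.01, Postn at 12.9, Twist2 at 0.23, Prrx1 at 19.2, Loxl1 at 22.7, Thbs2 at 13.5, Lox at 107, Tgfbi at 16 and S100a4 at 24.9. Retroviral OSKM line 1 stood above its group for 10 genes, with these levels in CPM: Thy1 at 0.836, Col1a1 at 50, Col5a2 at 1.7, Twist1 at 8.95, Twist2 at 0.189, Prrx1 at 149, Thbs2 at 0.297, Lox at 0.62, Tgfbi at 1.48 and S100a4 at 39.7. The other 6 marks were spread over other lines. Postn measured 0.539 CPM in retroviral OSKM line 4, above 0.108 CPM, the highest of the other 4. Zeb1 measured 32.8 CPM in lentiviral SKM line 5, below 45.9 CPM, the lowest of the other 4. Fap measured 0.0939 CPM in lentiviral OSKM line 3, above 0 CPM, the highest of the other 4. Tcf21 measured 0.766 CPM in retroviral OSKM line 5, above 0.0479 CPM, the highest of the other 4. Fn1 measured 14.5 CPM in retroviral OSKM line 5, below 231 CPM, the lowest of the other 4. Thbs1 measured 3.23 CPM in retroviral OSKM line 3, below 23.1 CPM, the lowest of the other 4. The levels of Lum, Twist2 and Fap so marked are below 1 CPM and rest on few counts. So do those of Thy1, Thbs2 and Lox in retroviral OSKM line 1, at 31, 11 and 23 counts. Postn in retroviral OSKM line 4 and Tcf21 in retroviral OSKM line 5 are alike, at 19 and 33 counts.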

How the results depend on the processing

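Counts of calls over all genes moved with the tool, and members were called only by DESeq2, in the second comparison. For lentiviral SKM against lentiviral OSKM lines, edgeR called 0 genes and DESeq2 44, with 0 members in every alternative. For retroviral against lentiviral OSKM lines, the 39 calls became 616 in DESeq2 (with 2 members), 63 in limma voom, 24 with no low-count filter, 155 with all 3 groups in 1 fit and 10 without the lines with Col1a1 above 1 CPM, an alternative chosen after seeing the data; leaving out 1 line gave 15 to 101 calls and 0 members. The lowest, 15 calls, came without retroviral OSKM line 4 or lentiviral OSKM line 1, and the highest without retroviral OSKM line 5. Same-numbered lines mostly did not deviate together (correlations of -0.126 to 0.293 and -0.176 to 0.0345). Low correlations cannot exclude shared handling of such lines, and the main fits did not pair them. The replicate block gave 0 calls in the first comparison and 3 in the second. Raising the level threshold from 1 to 5 CPM left 3 genes above it in every line and 5 at or below it in all. Leaving out 1 line gave 8 to 9 and 3 to 5, the last without lentiviral OSKM line 5. The median over members of log2(CPM + 0.5), averaged over the retroviral lines, was -0.11 ± 1.07 (SD, n = 5), and -1.25 with a pseudocount of 0.1 and 1.29 as a mean over members. Relations to Col1a1 passed for 9 members by rho, 18 by Pearson's r, 15 with group means removed, 3 in the 10 lentiviral lines, 2 without the 2 farthest lines, and 0 both in the 11 lines low in Col1a1 and in the 10 lentiviral lines without the 2 farthest (both chosen after seeing the data); leaving out 1 line gave 3, without lentiviral OSKM line 5, to 15, without retroviral OSKM line 3. The cause of these differences was not tested beyond the smaller number of lines or genes in the alternatives that remove them. Retroviral libraries were shallower, so levels near 0.0851 CPM are measured less precisely there.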
